A study of Mus musculus with 50 samples.

Results

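A set of 10 genes of endoplasmic reticulum (ER)-associated degradation was followed by name through RNA-seq gene counts: Herpud1, Sel1l, Syvn1, Derl1, Derl2, Derl3, Edem1, Edem2, Os9 and Dnajb9. All 10 were found once each among the 39056 entries of the gene table, and all 10 passed the filter on low counts that left 16460 genes for testing. The libraries came from developing oligodendrocytes of C57BL/6 background, grown from oligodendrocyte progenitors that had been immunopanned from the cortices of 6-day-old pups, passaged 2 times and left to differentiate for 12 to 14 h before treatment (the tissue label itself reads whole brain). Wild-type cells were compared with Nrf2 -/- cells, which lack both copies of Nfe2l2, the gene of the transcription factor NRF2. Both genotypes were left untreated or given 200 U/ml IFN-γ, with RNA taken at 1, 8, 24 and 48 h, or given thapsigargin (200 µM in the labels), with RNA taken at 1 and 8 h. That makes 20 groups and 50 libraries, with 2 libraries in each wild-type group and 3 in each Nrf2 -/- group. Levels are CPM values, counts relative to the scaled total of each library, a difference is a log2 fold change from 1 edgeR quasi-likelihood model over all 50 libraries, and a gene was called at a Benjamini-Hochberg adjusted p below 0.05 over all genes tested.

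ER-associated degradation removes proteins that fail to fold in the ER: they are recognised, pulled back through the membrane, ubiquitinated and destroyed by the proteasome. The lectins and mannosidase-like proteins EDEM1, EDEM2 and OS9 read the sugars of misfolded glycoproteins. The membrane ubiquitin ligase HRD1, made from Syvn1, works with SEL1L, its adaptor, and with HERP, made from Herpud1, while the derlins (Derl1, Derl2, Derl3) help to move substrates across the membrane. Dnajb9 makes ERdj4, a co-chaperone of BiP that brings misfolded proteins to degradation and also acts on the stress sensor IRE1. Many of these genes are known targets of the unfolded protein response, the programme that thapsigargin starts by blocking the calcium pump that fills the ER, and oligodendrocytes make large amounts of membrane protein when they form myelin.

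Promoter sequence was available for 9 of the 10 members in the RefSeq table (GRCm38.p6), which does not list Derl1, in 10 windows of 250 bases that end at the transcription start. Letters of 6 motifs were searched on both strands. The ER stress response element (ERSE, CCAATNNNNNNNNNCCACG) was matched in Derl3 and Syvn1 and in 0.113% of 32851 promoter windows of the same length. The Herpud1 window ends on the letters of an ERSE except the last, which would lie past the window. That site could not be matched, so an ERSE in Herpud1 is left undecided. The related ERSE-II (ATTGGNCCACG) was matched in Herpud1 and in 0.0304% of windows. Herpud1 also held the core of the composite C/EBP-ATF element (TGATGNAA), found in 3.45% of windows, on the opposite strand. The gamma-activated sequence (TTCNNNGAA), matched in 7.02% of windows, was present in Edem2 only among the windows of the 9 members. The interferon-stimulated response element core (GAAANNGAAA, 2.98% of windows) and the core of the unfolded protein response element (TGACGTGG, 0.563% of windows) were matched in none of them. No 2 of these matches overlapped. The 3 windows with an ERSE or ERSE-II are shown because these genes were called higher at the first hour of thapsigargin, and the Sel1l window, in which no motif was matched, because Sel1l was not. Derl2 and Dnajb9, which were called at that hour too, had no match either. The windows shown were picked with matches and calls known, and a link between motif and early call was not tested. Matches are in capitals and each window runs 5′ to 3′ on the strand of its gene.
Herpud1, chr8:94386179-94386428, plus strand: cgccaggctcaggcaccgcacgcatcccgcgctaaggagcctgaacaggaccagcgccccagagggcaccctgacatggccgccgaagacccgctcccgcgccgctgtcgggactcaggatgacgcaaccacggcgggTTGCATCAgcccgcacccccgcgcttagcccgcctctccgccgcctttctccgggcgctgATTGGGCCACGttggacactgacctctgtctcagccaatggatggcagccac
Syvn1, chr19:6046326-6046575, plus strand: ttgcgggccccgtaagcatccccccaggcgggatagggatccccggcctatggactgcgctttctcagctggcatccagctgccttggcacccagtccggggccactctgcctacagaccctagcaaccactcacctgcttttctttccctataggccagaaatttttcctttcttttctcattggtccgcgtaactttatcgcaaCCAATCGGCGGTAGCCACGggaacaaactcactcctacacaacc
Derl3, chr10:75893148-75893397, plus strand: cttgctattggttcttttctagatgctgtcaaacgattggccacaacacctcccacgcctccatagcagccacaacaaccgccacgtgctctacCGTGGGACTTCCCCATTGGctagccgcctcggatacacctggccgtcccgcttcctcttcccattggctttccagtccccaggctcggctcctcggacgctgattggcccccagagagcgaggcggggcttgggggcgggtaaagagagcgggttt
Sel1l, chr12:91849158-91849407, minus strand: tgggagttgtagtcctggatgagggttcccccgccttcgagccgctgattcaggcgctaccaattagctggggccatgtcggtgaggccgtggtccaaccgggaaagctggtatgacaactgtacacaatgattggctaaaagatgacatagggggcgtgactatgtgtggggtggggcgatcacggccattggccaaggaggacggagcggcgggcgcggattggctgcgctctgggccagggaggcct
In Herpud1 the capitals mark TTGCATCA, 112 to 105 bases before the start, and the ERSE-II, 52 to 42 bases before it. The Syvn1 match lies 44 to 26 bases before the start, and the Derl3 match, read on the opposite strand, 156 to 138 bases before it. A match describes these letters only and does not show that a factor binds there.

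In GENCODE M21 (GRCm38) the members lie on 8 chromosomes. Herpud1 is at chr8:94386438-94395377 on the plus strand, Sel1l at chr12:91806043-91849157 on the minus strand and Syvn1 at chr19:6046576-6053712 on the plus strand. Derl1 is at chr15:57869502-57892448 and Derl2 at chr11:71007164-71019841, both on the minus strand, and Derl3 at chr10:75893413-75895941 on the plus strand. Edem1 is at chr6:108828641-108859356 on the plus strand, and Edem2 (chr2:155701677-155729475), Os9 (chr10:127095650-127121131) and Dnajb9 (chr12:44205559-44210326) are on the minus strand. Values are summed over all exons of each gene.

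Total counts ran from 32252272 to 54657205 per library. The targeted gene, Nfe2l2, was at 5.12 to 70.4 CPM in the wild-type libraries and at 0.0973 to 0.859 CPM in 29 of the 30 Nrf2 -/- libraries. Replicate 3 of untreated Nrf2 -/- at 8 h stood apart at 7.62 CPM, inside the wild-type range. The 3 libraries of replicate 2 at 8 h (untreated, IFN-γ and thapsigargin) carry a mutant title but a wild-type genotype tag; they were placed by title, and their Nfe2l2 levels were 0.178, 0.218 and 0.669 CPM. The labels do not say that replicates came from separate animals or cultures, so p-values measure only the spread between libraries. All 12 oligodendrocyte lineage markers were detected in every library, and other cell types were checked by their own lists. Of 10 microglial markers only P2ry12 passed the filter (1.04 to 7.62 CPM); C1qa, C1qb, C1qc and Aif1 were at 0 in all 50 libraries, and Ptprc was detected in 40 of them at up to 0.218 CPM. All 8 astrocyte markers passed, led by S100b (median 204 CPM) and Aldoc (184 CPM), with Gfap at 3.81 CPM. Of 9 neuronal markers 7 passed, led by Map2 (median 1190 CPM), with the others at medians of up to 8.11 CPM. Of 8 vascular and fibroblast markers 3 passed, and Cldn5 was at 0 in all 50 libraries.

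Thapsigargin for 8 h raised every one of the 10 members in both genotypes, from 2.27-fold (Edem2, wild type) to 272-fold (Derl3, Nrf2 -/-). Of these, 5 had already risen at 1 h: Herpud1, Syvn1, Derl2, Derl3 and Dnajb9. The other five, Sel1l, Derl1, Edem1, Edem2 and Os9, were not called at 1 h. The comparison asks how the members answer ER stress with and without NRF2.

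Herpud1, whose protein scaffolds the HRD1 ligase, was among the early genes. Untreated libraries at 1 h held 27.02 and 28.3 CPM in wild type and 29.03, 25.6 and 26.8 CPM in Nrf2 -/-, against 117 and 120.2 (wild type) and 84.1, 81.1 and 107 (Nrf2 -/-) CPM with thapsigargin. All treated libraries lay above all untreated ones. The log2 fold change was 2.10 ± 0.091 (SE) in wild type and 1.74 ± 0.074 (SE) in Nrf2 -/- (adjusted p = 2.09e-20 and 8.68e-21). At 8 h the untreated libraries stood at 35.9 and 32.5 (wild type) and 33.6, 34.3 and 33.6 (Nrf2 -/-) CPM. The thapsigargin libraries stood at 1072 and 926 CPM in wild type and 1031, 1105 and 1128 CPM in Nrf2 -/-. This was a rise of 4.87 ± 0.10 (SE) and 5.01 ± 0.083 (SE) on the log2 scale.

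Of the adaptor and the ligase of one complex, Syvn1 was called at 1 h and Sel1l at 8 h only. At 1 h Sel1l was at 189 and 169.8 CPM untreated and 196 and 189 CPM with thapsigargin in wild type, and at 181, 178 and 177 (untreated) and 186, 198 and 202 (treated) CPM in Nrf2 -/-. The log2 fold changes of 0.10 and 0.13 were not called (adjusted p = 0.332 and 0.0807), but without thapsigargin replicate 1 the second was (log2 0.17, adjusted p = 0.0448). By 8 h it had gone from 229 and 217 to 2249 and 2364 CPM in wild type and from 215, 209 and 235 to 2033, 1952 and 2029 CPM in Nrf2 -/-. The log2 fold changes were 3.37 ± 0.064 (SE) and 3.19 ± 0.052 (SE). Syvn1 rose at 1 h from 24.3 and 24.9 to 45.5 and 44.5 CPM in wild type and from 21.2, 25.7 and 22.1 to 42.2, 36.6 and 36.3 CPM in Nrf2 -/-. The groups did not overlap, and the log2 fold changes were 0.87 ± 0.18 (SE) and 0.74 ± 0.14 (SE) (adjusted p = 0.000707 and 0.000417). At 8 h Syvn1 was 189 and 233 CPM in wild type and 221, 191 and 219 CPM in Nrf2 -/-, against 22.1 and 28.5 (wild type) and 22.1, 28.5 and 34.1 (Nrf2 -/-) CPM untreated. Per kb of merged exon, the ratio of Sel1l to Syvn1 in a library was 3.88 to 4.41 in wild type and 3.92 to 4.85 in Nrf2 -/- at 1 h untreated. With thapsigargin it was lower at 1 h, at 2.41 to 2.44 and 2.51 to 3.17, without overlap. At 8 h it was 5.77 to 6.78 and 5.22 to 5.80, against 4.32 to 5.88 and 3.92 to 5.53 untreated, and the ranges overlapped. The strand setting of the counting is not given in the sources used here, so reads of Syvn1 and of Mrpl49, which overlaps it on the other strand, cannot be told apart; the same holds for Derl2 and Mis12.

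Of the 3 derlins, Derl2 and Derl3 were called at 1 h and Derl1 at 8 h only. Outside the 5 libraries of thapsigargin at 8 h the counts of Derl3 ran from 0 to 68, and its level was at most 1.95 CPM. At 1 h it was 0.251 and 0.294 CPM untreated and 1.32 and 1.95 CPM with thapsigargin in wild type, and 0.138, 0.275 and 0.294 (untreated) and 1.52, 1.62 and 1.61 (treated) CPM in Nrf2 -/-. The pooled counts were 21 and 116 in wild type and 27 and 180 in Nrf2 -/-, ratios of 5.99 (95% exact interval 3.74 to 10) and 6.67 (4.43 to 10.4) after scaling, where the interval covers counting error only. At 8 h Derl3 reached 72.1 and 58.2 CPM in wild type and 66.8, 67.7 and 71.8 CPM in Nrf2 -/-, against 0.181 and 0.320 (wild type) and 0.293, 0.153 and 0.315 (Nrf2 -/-) CPM untreated. That is 258 times (167 to 422) and 272 times (189 to 406) the untreated level, the largest ratio among the members. With the authors' kallisto estimates summed per gene, in which untreated 1 h libraries already held 73 to 76 (wild type) and 56 to 90 (Nrf2 -/-) estimated counts of Derl3, the rise at 1 h in wild type was 0.46 on the log2 scale and was not called (adjusted p = 0.348).

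Derl2 rose from 40.5 and 38.7 to 69.5 and 65.3 CPM in wild type and from 40.96, 36.95 and 40.8 to 60.5, 57.9 and 69.2 CPM in Nrf2 -/- at 1 h. No treated library overlapped an untreated one. Derl1 was not called at 1 h, with 91.8 and 90.5 CPM under thapsigargin against 89.9 and 91.7 CPM untreated in wild type and a log2 fold change of 0.01 ± 0.079 (SE) (95% interval -0.16 to 0.17). By 8 h Derl1 had risen by 1.67 and 1.78 and Derl2 by 1.73 and 1.73 on the log2 scale in wild type and Nrf2 -/-. In CPM, Derl1 was 389 and 340.4 (wild type) and 344, 353 and 369 (Nrf2 -/-) at 8 h of thapsigargin, from 115 and 114 (wild type) and 110.1, 102 and 99.1 (Nrf2 -/-) untreated. Derl2 was 165 and 161 (wild type) and 161, 167 and 163 (Nrf2 -/-) CPM, from 50.2 and 47.8 (wild type) and 50.6, 51.4 and 46.4 (Nrf2 -/-) CPM.

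Among the genes that read substrate sugars, Edem1, Edem2 and Os9 were called at 8 h and not at 1 h. At 8 h Edem1 was at 466 and 544 CPM in wild type and 447, 439 and 482 CPM in Nrf2 -/-, from 66.1 and 62.7 (wild type) and 62.9, 60.5 and 74.02 (Nrf2 -/-) CPM untreated, with log2 fold changes of 2.97 ± 0.085 (SE) and 2.79 ± 0.069 (SE). Edem2 went from 48.6 and 47.2 (wild type) and 47.5, 47.3 and 43.4 (Nrf2 -/-) CPM to 121 and 97.1 (wild type) and 103, 107 and 106 (Nrf2 -/-) CPM, the smallest rise of the 10 in both genotypes at 1.19 ± 0.097 (SE) and 1.19 ± 0.079 (SE). Per kb of merged exon the ratio of Edem1 to Edem2 was 0.713 to 0.730 in untreated wild type and 0.686 to 0.915 in untreated Nrf2 -/- at 8 h. Under thapsigargin it was 2.07 to 3.01 and 2.20 to 2.45, so Edem1 was above Edem2 in all 5 libraries. This was not particular to thapsigargin. In untreated cells the ratio was 1.235 to 1.568 (wild type) and 1.205 to 1.454 (Nrf2 -/-) at 24 h. At 48 h it was 1.036 to 1.109 and 1.145 to 1.29. In CPM not divided by exon length, Edem1 was above Edem2 in the untreated libraries at 8 h too. Os9, the lectin that hands substrates to SEL1L, was at 454 and 341 CPM in wild type and 409.8, 433 and 421 CPM in Nrf2 -/- at 8 h, from 157 and 176 (wild type) and 153, 153 and 153 (Nrf2 -/-) CPM. Its log2 fold changes were 1.26 ± 0.096 (SE) and 1.46 ± 0.079 (SE).

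Dnajb9 was the early member with the smallest rise at 1 h: 16.1 and 16.3 CPM became 23.4 and 24.5 CPM in wild type, and 17.2, 15.6 and 15.1 became 23.8, 22.3 and 22.3 CPM in Nrf2 -/-. The log2 fold changes were 0.56 ± 0.12 (SE) and 0.51 ± 0.096 (SE) (adjusted p = 0.000941 and 0.000191). At 8 h the rise was 3.30 ± 0.12 (SE) and 3.40 ± 0.10 (SE), to 188 and 159 CPM in wild type and 168, 172 and 177 CPM in Nrf2 -/-.

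Counted over the members, 5 of 10 were called higher at 1 h in each genotype, where 6.68% of all genes tested were called higher in wild type and 7.58% in Nrf2 -/-. At 8 h 10 of 10 were called higher in each, where the share of all genes was 28.4% and 30.4%, with a largest adjusted p among members of 1.26e-13 and 1.74e-16. The median log2 fold change of the members at 8 h was 3.01 in wild type and 2.85 in Nrf2 -/-, and that of all genes 0.02 and 0.00. Each of the 10 had risen more at 8 h than at 1 h by a test of the difference between the responses, against 19.4% and 23.2% of all genes; the gain ran from 0.97 (Derl2) to 5.43 (Derl3) in wild type and from 1.07 (Derl2) to 5.35 (Derl3) in Nrf2 -/-. Summed oligodendrocyte lineage markers were 3285 to 3709 CPM at 8 h of thapsigargin and 9111 to 10510 CPM untreated. Summed astrocyte markers were 162 to 187 against 507 to 583 CPM and neuronal ones 831 to 946 against 1521 to 1615 CPM. The part of these lists in the rises was not tested. By median over all libraries S100b and Aldoc lead the astrocyte list and Map2 the neuronal one, so these sums are not counts of cells. In bulk RNA fewer cells of a type and less RNA per cell cannot be told apart. The counts at 1 and 8 h stayed at 5 and 10 in both genotypes without the library of aberrant Nfe2l2 level and without the libraries of conflicting labels.

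**Figure D1:**
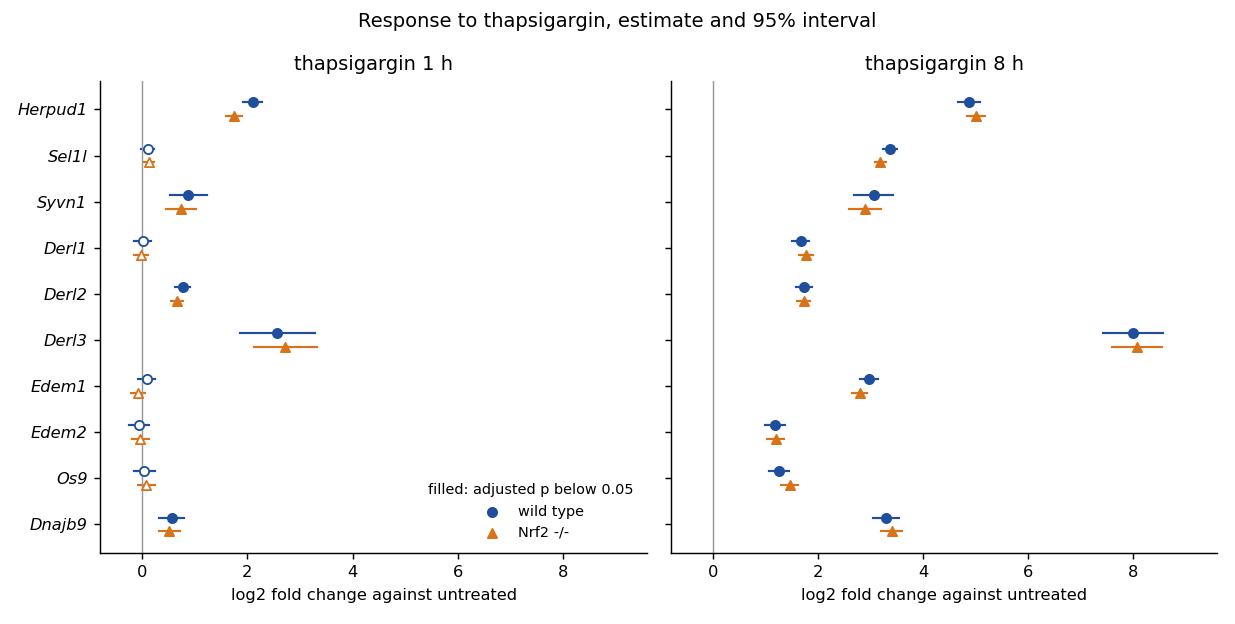
Log2 fold change of each member under thapsigargin against untreated cells of the same hour (x axis), with 95% intervals, in wild type (circles, 2 libraries a group) and Nrf2 -/- (triangles, 3 libraries a group); filled symbols have an adjusted p below 0.05. At 1 h 5 members are filled in each genotype, and at 8 h all 10 are, with Derl3 highest.

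The order of the members changed with the rise. Per kb of merged exon, the median of the 5 untreated libraries at 8 h was highest for Os9 (58.4), then Derl1 (33.1), Sel1l (25.3), Herpud1 (14.4), Edem2 (13.7), Edem1 (9.75), Dnajb9 (6.75), Derl2 (6.23), Syvn1 (5.86) and Derl3 (0.147). Herpud1 and Edem2 overlapped between libraries, as did Dnajb9, Derl2 and Syvn1. Under thapsigargin at 8 h the order was Herpud1 (459.5), Sel1l (238), Os9 (160.0), Derl1 (106), Edem1 (72.1), Dnajb9 (67.6), Syvn1 (45.04), Derl3 (33.96), Edem2 (30.6) and Derl2 (20.3). There Edem1 overlapped with Dnajb9, and Derl3 with Edem2. Herpud1 thus went from the fourth place to the first, and Os9 from the first to the third. Places between genes depend on the exon length used, which counts every annotated exon (8049 bases for Derl2). In CPM not divided by it, Sel1l had the highest median both untreated (216.5) and under thapsigargin (2033) at 8 h.

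**Figure D2:**
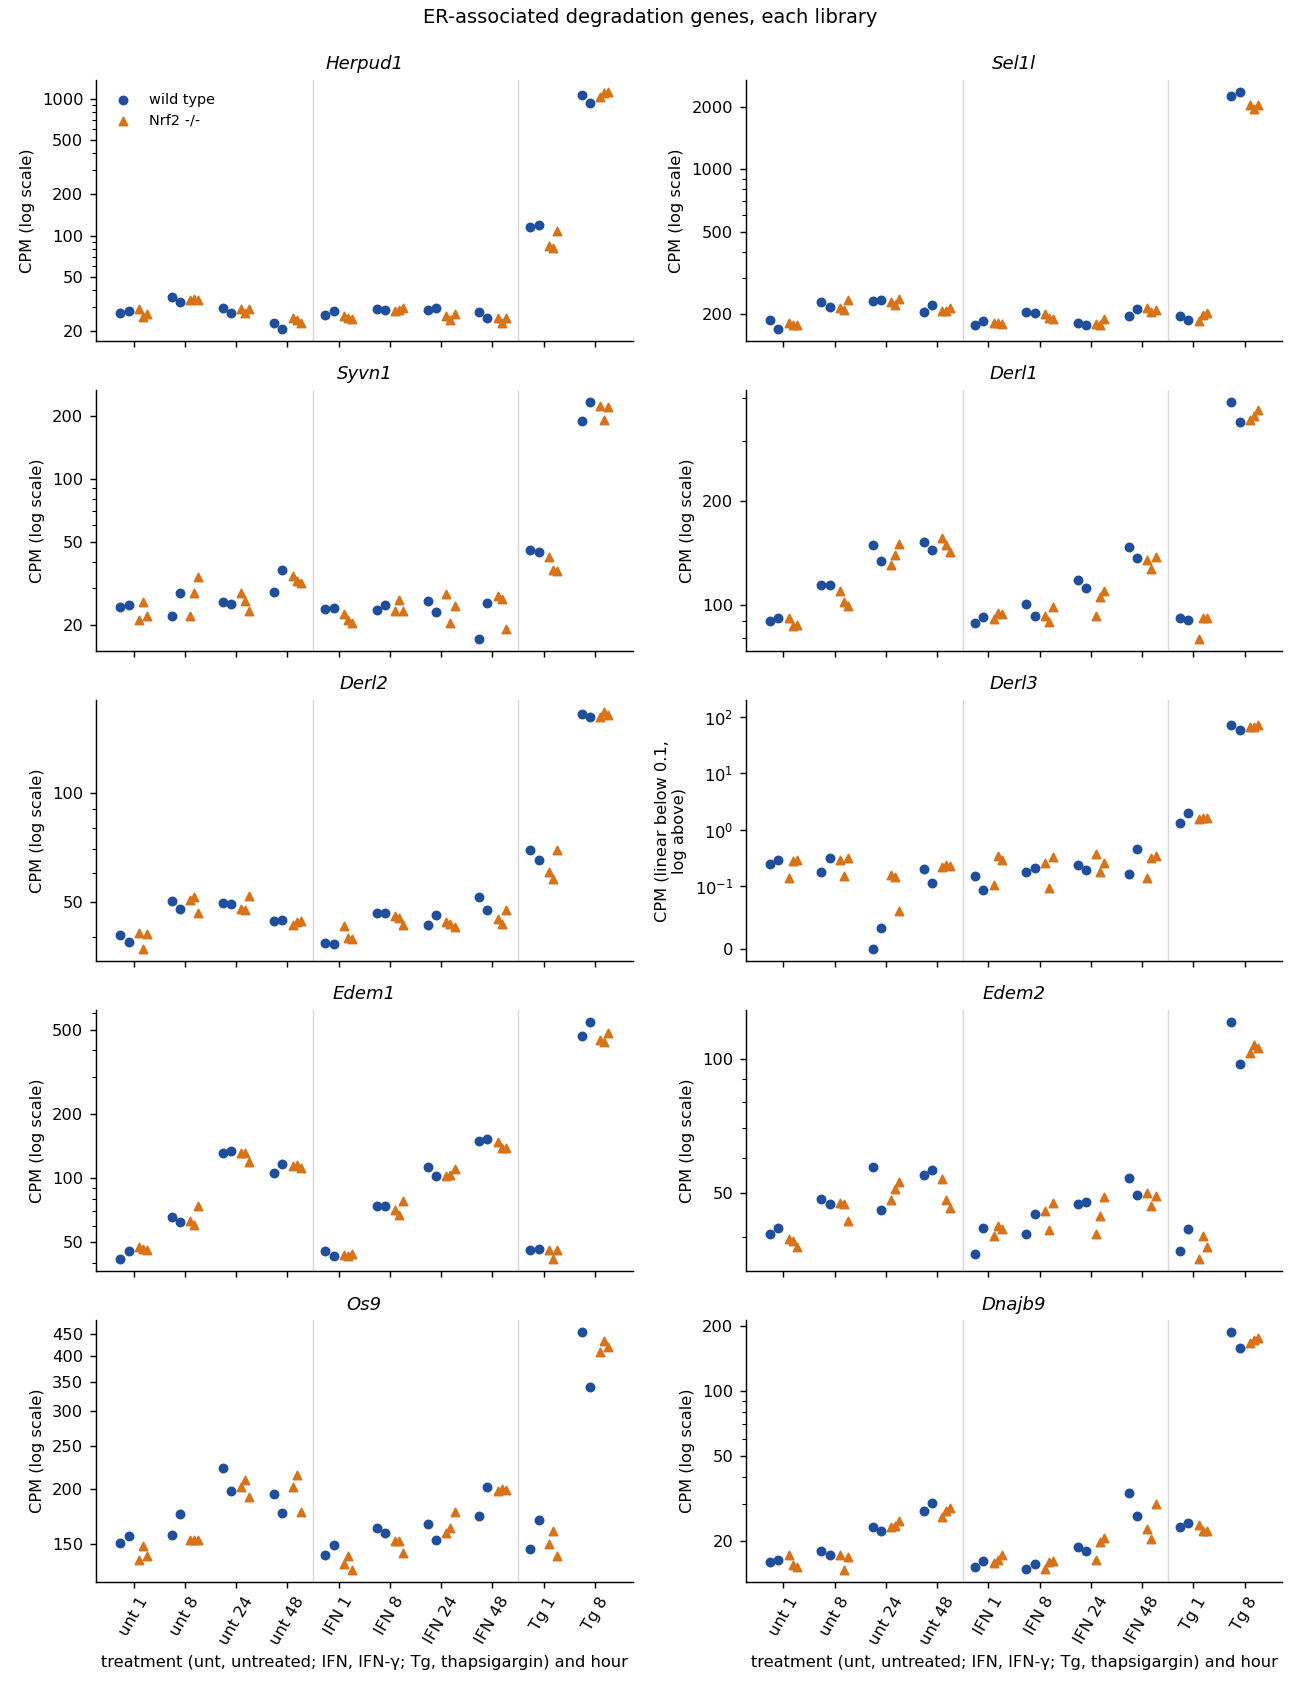
CPM of each member in every library (y axis, log scale; for Derl3 linear below 0.1 CPM), by treatment and hour, for wild type (circles) and Nrf2 -/- (triangles). The 5 thapsigargin libraries at 8 h lie above all other libraries for every member, and untreated Edem1 and Derl1 are higher at 48 h than at 1 h.

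Thapsigargin was also set against the other treatment at the same hour. At 8 h all 10 members were higher under thapsigargin than under IFN-γ in both genotypes, by 1.30 (Os9) to 8.35 (Derl3) on the log2 scale in wild type and by 1.23 (Edem2) to 8.27 (Derl3) in Nrf2 -/-, where 27.6% and 30.3% of all genes were higher. The largest adjusted p was 4.95e-15 and 5.46e-17.

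Changes of the members under IFN-γ were small, and mostly downward at 24 h. At 1 h edgeR called 0 of 10 in either genotype, with 0 at an unadjusted p under 0.05 and 0 by DESeq2, while 2.1% and 2.21% of all genes were called. At 24 h 5 members were lower in both genotypes: Sel1l, Derl1, Edem1, Os9 and Dnajb9, with Derl2 and Edem2 called lower in Nrf2 -/- as well. At 48 h Edem1 was higher and Syvn1 lower in both genotypes. Apart from Derl3, the change furthest from 0 was that of Syvn1 at 48 h in wild type, at -0.62 on the log2 scale.

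At 8 h wild type had 2 members called lower, Herpud1 and Derl1, where 12.7% of all genes were called lower. Nrf2 -/- had 3, Herpud1, Sel1l and Derl2, where 14.6% were. Herpud1 was 28.9 and 28.7 CPM with IFN-γ against 35.9 and 32.5 CPM untreated in wild type, and 28.1, 28.6 and 29.8 against 33.6, 34.3 and 33.6 CPM in Nrf2 -/-. The groups did not overlap, and the log2 fold changes were -0.25 ± 0.090 (SE) and -0.23 ± 0.073 (SE) (adjusted p = 0.0356 and 0.0126). Each of these 5 calls was lost when some single library was left out. Herpud1 in wild type lost it without untreated replicate 1 (adjusted p = 0.299), IFN-γ replicate 1 (0.128) or IFN-γ replicate 2 (0.129), and in Nrf2 -/- without IFN-γ replicate 1 (0.0516). Derl1 in wild type (log2 -0.24) lost it without untreated replicate 1 (0.0811) or 2 (0.0712) or IFN-γ replicate 2 (0.178). Sel1l in Nrf2 -/- (log2 -0.18) lost it without untreated replicate 3, the library of aberrant Nfe2l2 level (0.0595); without that library Edem1 was called higher instead (log2 0.22, adjusted p = 0.00918). Derl2 in Nrf2 -/- (log2 -0.15) lost it without any of 5 libraries (untreated replicates 1 and 2, IFN-γ replicates 1, 2 and 3; adjusted p from 0.0516 to 0.172). Leaving out IFN-γ replicate 3 brought Derl1 past the threshold in Nrf2 -/- (0.0445). With the libraries of conflicting labels left out, 1 member remained called in Nrf2 -/-. With all libraries kept, Herpud1 in wild type lost its call with RLE size factors (adjusted p = 0.0506) or DESeq2 (0.0666). It also lost it with kallisto estimates (0.0552) or only the compared groups in the fit (0.0831). Edem1 in wild type was called higher with RLE size factors (0.0391), DESeq2 (0.0388) or only the compared groups (0.0319). The same held with the libraries of conflicting labels left out (0.0477) or counted as wild type (0.025).

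The falls of Sel1l and Os9 at 24 h were called in both genotypes whichever single library was left out. Sel1l was 231 and 235 CPM untreated and 181 and 178 CPM with IFN-γ in wild type, and 229, 222 and 237 (untreated) and 180.1, 178 and 189.9 (treated) CPM in Nrf2 -/-, without overlap. The log2 fold changes were -0.37 ± 0.059 (SE) and -0.33 ± 0.048 (SE) (adjusted p = 1.39e-06 and 2.77e-07). Os9 went from 223 and 198 to 166 and 153 CPM in wild type and from 203, 209 and 192 to 159, 163 and 177 CPM in Nrf2 -/- (log2 -0.40 and -0.28). Derl1 went from 149 and 134 to 118 and 112 CPM and from 130.4, 139 and 151 to 93.1, 106 and 110.0 CPM (log2 -0.30 and -0.45). The log2 fold changes of Edem1 were -0.30 and -0.27, and those of Dnajb9 -0.31 and -0.33. The calls numbered 5 lower and 1 higher in wild type, where 21.5% of all genes were called lower and 21.7% higher, and 7 lower and 1 higher in Nrf2 -/-, where 24.7% and 22.6% were. Summed oligodendrocyte lineage markers were also lower at 24 h, at 7392 to 9491 CPM with IFN-γ against 19950 to 24040 CPM untreated. Astrocyte markers were 438 to 542 against 649.7 to 725 CPM and neuronal ones 1006 to 1150 against 1190 to 1367 CPM. The part of these lists in the falls was not tested. Here too the lists are led by S100b and Aldoc and by Map2, and their sums are not counts of cells.

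Some of the calls at 24 h rested on single libraries. In wild type Derl1 lost its call without untreated replicate 1 (adjusted p = 0.0672), Edem1 without IFN-γ replicate 2 (0.0681), and Dnajb9 without any 1 of the 4 libraries (0.0808 to 0.154). In Nrf2 -/- Dnajb9 lost it without IFN-γ replicate 1 (0.0797), Derl2 without untreated replicate 1 (0.0542) or 3 (0.091), and Edem2 without IFN-γ replicate 1 (0.367) or 2 (0.149) or untreated replicate 1 (0.0977), 2 (0.0955) or 3 (0.161). The gene called higher in both genotypes was Derl3, from 1 to 15 counts in wild type and from 12 to 37 in Nrf2 -/-. These are ratios of 13.5 (exact interval 2.07 to 566) and 2.35 (1.2 to 4.94), for counting error only. The call was lost in wild type without untreated replicate 1 (adjusted p = 0.0788) and in Nrf2 -/- without IFN-γ replicate 1 (0.264) or untreated replicate 2 (0.0572) or 3 (0.184). With the kallisto estimates its direction turned, to -0.10 and -0.22 on the log2 scale, so no direction is given for Derl3 at 24 h.

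At 48 h the members were no longer lower together. Edem1 was 106 and 117 CPM untreated and 149.6 and 153 CPM with IFN-γ in wild type, and 115, 116 and 112 (untreated) and 148, 139.6 and 139 (treated) CPM in Nrf2 -/-; all 5 treated libraries lay above all 5 untreated ones. The log2 fold changes were 0.44 ± 0.079 (SE) and 0.32 ± 0.065 (SE) (adjusted p = 1.52e-05 and 8.86e-05). Syvn1 was 28.9 and 36.7 (untreated) and 17.1 and 25.5 (treated) CPM in wild type and 34.4, 32.3 and 31.8 (untreated) and 27.7, 26.7 and 19.2 (treated) CPM in Nrf2 -/- (log2 -0.62 and -0.42). Herpud1 was higher in wild type, at 27.5 and 24.9 against 22.8 and 20.8 CPM (log2 0.26), and Derl1 lower in Nrf2 -/- (log2 -0.16). In all, 2 members were called higher and 1 lower in wild type, where 21.1% and 22% of all genes were, and 1 higher and 2 lower in Nrf2 -/-, where 22.8% and 22.6% were. Only the Edem1 calls held when each library was left out in turn. Syvn1 lost its call without wild-type IFN-γ replicate 1 (adjusted p = 0.238) or untreated replicate 2 (0.12), and without Nrf2 -/- untreated replicate 1 (0.0552) or IFN-γ replicate 3 (0.155). Herpud1 lost it without wild-type IFN-γ replicate 1 (0.158) or untreated replicate 2 (0.191). Derl1 lost it without Nrf2 -/- IFN-γ replicate 1 (0.0578) or 2 (0.151) or untreated replicate 1 (0.151) or 2 (0.0706). Calls also appeared: Derl2 higher in wild type without IFN-γ replicate 2 (0.0207), Derl3 higher in wild type without IFN-γ replicate 1 (0.0497) and Dnajb9 lower in Nrf2 -/- without IFN-γ replicate 3 (0.00261). Summed oligodendrocyte lineage markers were 17410 to 21450 CPM with IFN-γ and 34740 to 37730 CPM untreated at this hour.

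**Figure D3:**
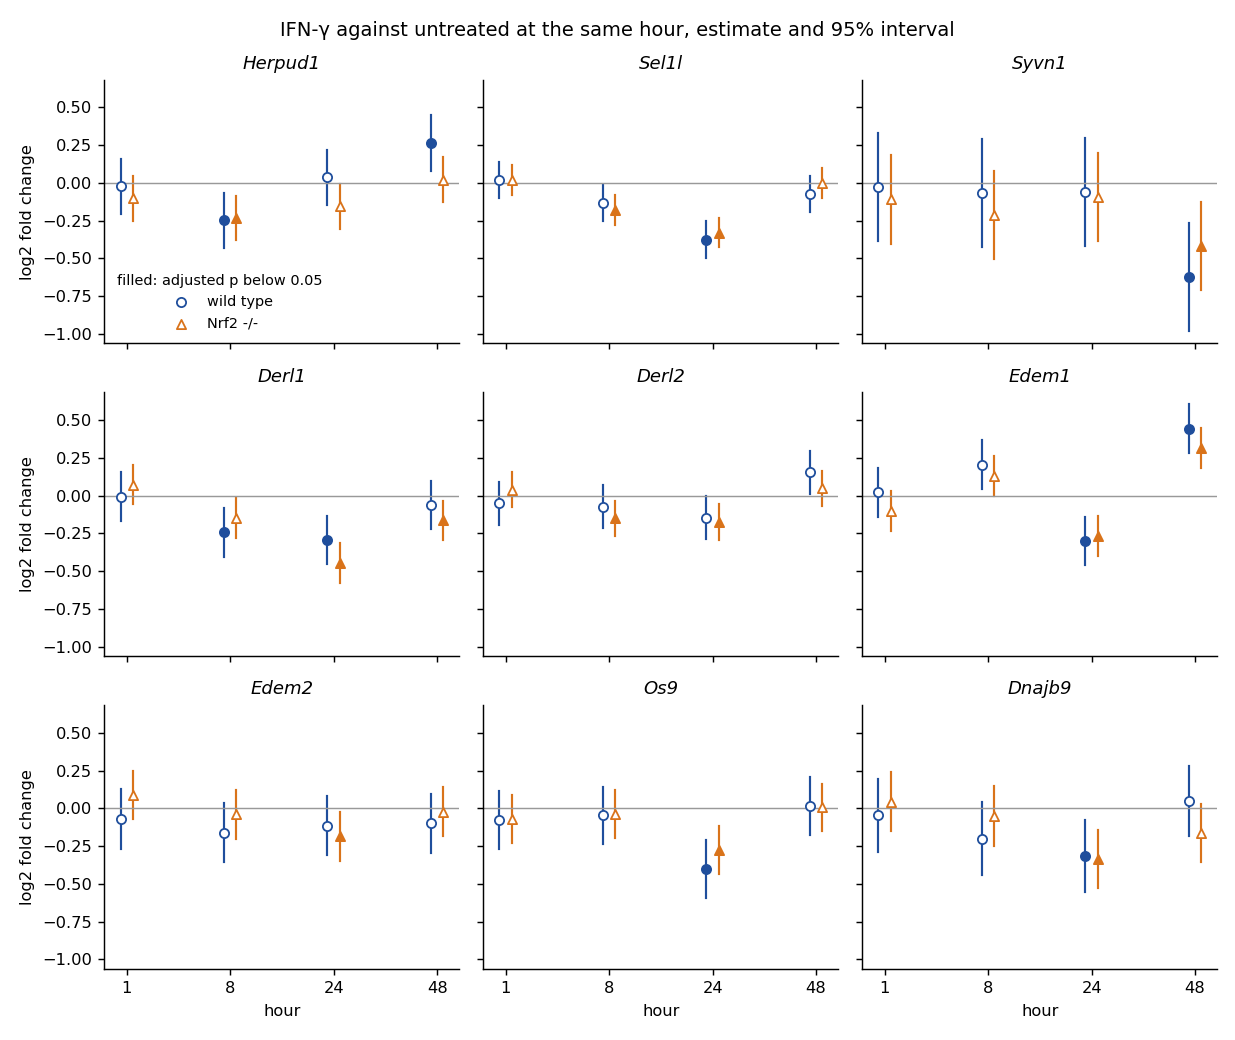
Log2 fold change of 9 members under IFN-γ against untreated cells of the same hour (y axis) at 1, 8, 24 and 48 h, with 95% intervals, in wild type (circles) and Nrf2 -/- (triangles); filled symbols have an adjusted p below 0.05 and Derl3 is left out for its low counts. Most members dip at 24 h, and Edem1 goes from below 0 at 24 h to above 0 at 48 h.

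Members also changed with time in untreated cells. Between 1 and 48 h, 8 of the 10 members rose and Herpud1 fell, in both genotypes, while Derl3 was not called (with the kallisto estimates it was called lower in wild type, at -0.65 on the log2 scale, adjusted p = 0.0437). Edem1 rose most, from 41.9 and 45.7 to 106 and 117 CPM in wild type and from 47.8, 46.8 and 46.3 to 115, 116 and 112 CPM in Nrf2 -/- (log2 1.35 ± 0.081 (SE) and 1.28 ± 0.066 (SE)). Its course was not even: the untreated libraries at 24 h, at 132 and 134 (wild type) and 131, 132 and 119 (Nrf2 -/-) CPM, lay above those at 48 h, a difference that was not tested. Dnajb9 rose from 16.1 and 16.3 to 27.6 and 30.3 CPM and from 17.2, 15.6 and 15.1 to 25.8, 27.7 and 28.6 CPM (log2 0.84 and 0.78). Derl1 rose from 89.9 and 91.7 to 153 and 144 CPM and from 91.6, 87.1 and 87.2 to 156, 149.6 and 142 CPM (log2 0.71 and 0.75). Sel1l, Syvn1, Derl2, Edem2 and Os9 rose by 0.14 (Derl2, Nrf2 -/-) to 0.51 (Syvn1, Nrf2 -/-). Herpud1 was 27.02 and 28.3 CPM at 1 h and 22.8 and 20.8 CPM at 48 h in wild type and 29.03, 25.6 and 26.8 (at 1 h) and 24.8, 24.1 and 22.98 (at 48 h) CPM in Nrf2 -/- (log2 -0.34 and -0.18). Of all genes, 29% were called higher and 25.7% lower in wild type, and 30.8% higher and 30.8% lower in Nrf2 -/-. Over the same hours summed oligodendrocyte lineage markers went from 7189 to 8153 CPM at 1 h to 34740 to 37730 CPM at 48 h.

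The rises of Edem1, Dnajb9, Derl1, Edem2 and Sel1l between 1 and 48 h were called in both genotypes whichever single library was left out, as were those of Syvn1 and Os9 in Nrf2 -/- and the fall of Herpud1 in wild type. In wild type Syvn1 lost its call without 1 h replicate 1 (adjusted p = 0.146) or 2 (0.111) or 48 h replicate 2 (0.397), Os9 without 1 h replicate 1 (0.0841) or 48 h replicate 1 (0.154), and Derl2 without any 1 of the 4 libraries (0.0679 to 0.233). In Nrf2 -/- Derl2 lost it without 1 h replicate 2 (0.188) or 48 h replicate 2 (0.075) or 3 (0.0664). Herpud1 in Nrf2 -/- lost it without 1 h replicate 1 (0.175) or 48 h replicate 2 (0.0534) or 3 (0.125). Sel1l in wild type was not called when only the compared groups were fitted (adjusted p = 0.0899).

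**Figure D4:**
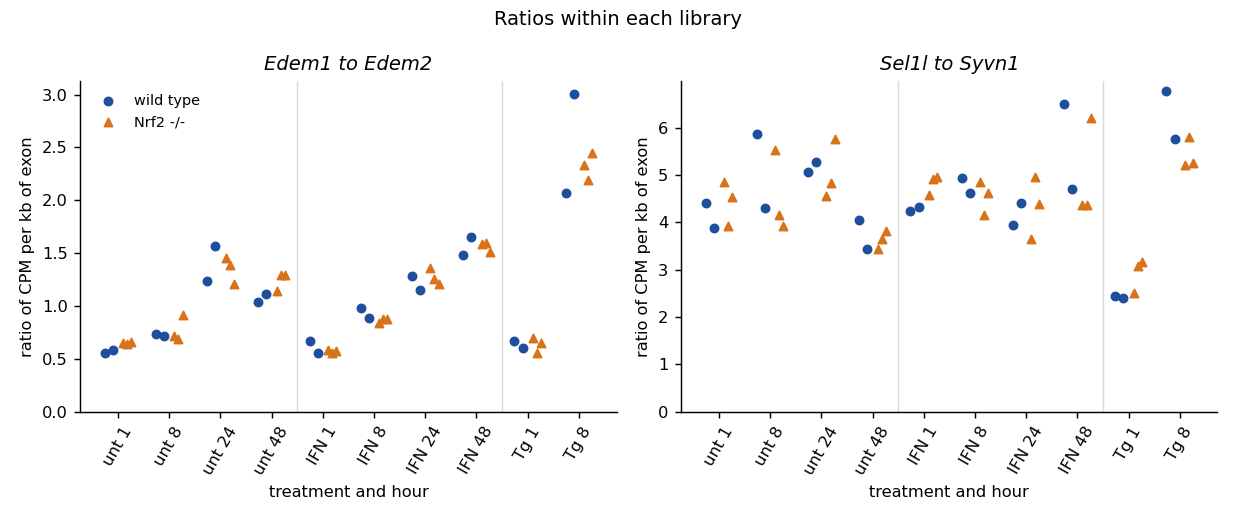
Ratio of Edem1 to Edem2 (left) and of Sel1l to Syvn1 (right) in each library, in CPM per kb of merged exon (y axis), by treatment and hour, for wild type (circles) and Nrf2 -/- (triangles). Edem1 to Edem2 is highest at 8 h of thapsigargin (2.07 to 3.01), and in untreated cells its group means are higher at 24 h than at 48 h; Sel1l to Syvn1 is lowest at 1 h of thapsigargin (2.41 to 3.17).

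No member was called between genotypes. Averaged over the hours, edgeR called 0 of 10 members between genotypes in untreated cells, under IFN-γ and under thapsigargin, where 0.0243%, 0.0547% and 0.51% of all genes were called. At an unadjusted p under 0.05 there were 1, 1 and 2 members, and DESeq2 called 0 in each. Apart from Derl3, the log2 difference of Nrf2 -/- minus wild type ran from -0.08 to 0.03 untreated, from -0.10 to 0.01 under IFN-γ and from -0.13 to 0.01 under thapsigargin. The 95% intervals reached from -0.17 to 0.19, from -0.18 to 0.17 and from -0.34 to 0.13, which bounds the average differences that these libraries could have missed. Derl3 had an untreated difference of 0.76 ± 0.36 (SE) (unadjusted p = 0.0406, adjusted p = 0.735) at counts of 1 to 29 per group.

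The responses themselves were also compared between genotypes. Of the members, 0 of 10 were called for a different response to thapsigargin at 1 or 8 h, to IFN-γ at 1, 8, 24 or 48 h, or for a different change from 1 to 48 h untreated, and 0.0% of all genes were called in each of these 7 tests; DESeq2 called 0 members. At an unadjusted p under 0.05 there was 1 member at 1 h of thapsigargin, 1 at 8 h, 1 at 48 h of IFN-γ and 0 in the others. At 1 h of thapsigargin it was Herpud1, with a response that differed by -0.36 on the log2 scale (Nrf2 -/- minus wild type, SE 0.11, unadjusted p = 0.00338, adjusted p = 1.0). Its thapsigargin libraries there were at 117 and 120.2 CPM in wild type and 84.1, 81.1 and 107 CPM in Nrf2 -/-. Herpud1 was picked by its p-value in this same test, so these levels add no support to a difference. At 8 h of thapsigargin it was Sel1l (-0.18, unadjusted p = 0.0199, adjusted p = 0.583), and at 48 h of IFN-γ Herpud1 (-0.24, unadjusted p = 0.0473, adjusted p = 0.602).

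**Figure D5:**
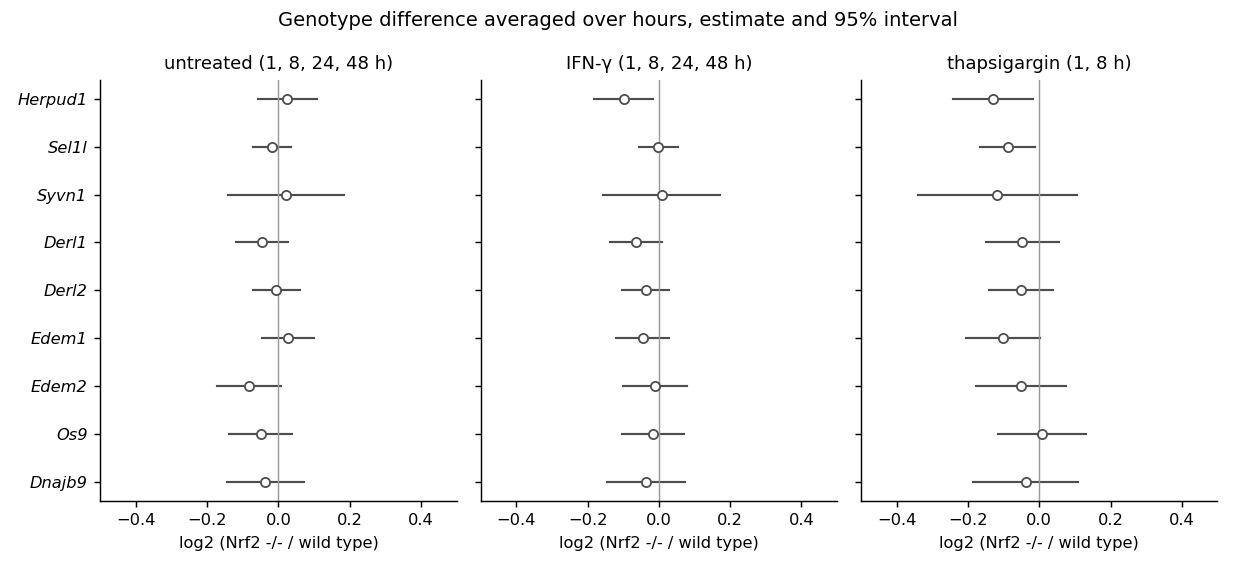
Log2 difference of Nrf2 -/- minus wild type for 9 members (x axis), averaged over the hours of each treatment, with 95% intervals; open symbols have an adjusted p of 0.05 or more and Derl3 is left out for its low counts. All estimates lie between -0.13 and 0.03.

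The members were set beside 60 other genes of the pathway, of which 59 were matched and tested. At 8 h of thapsigargin 31 of the 59 were higher and 12 lower in wild type (52.5% and 20.3%, against 28.4% and 27.1% of all genes). In Nrf2 -/- 33 were higher and 11 lower (55.9% and 18.6%, against 30.4% and 29.6%). The medians were 0.27 and 0.28 on the log2 scale against 3.01 and 2.85 for the 10 members. Members and wider list were chosen with earlier results of these data known, so this contrast describes the choice and is not a test. Of the 59 genes, 29 were higher and 11 lower in both genotypes. Among those 29, the 4 that rose most were Selenos (VIMP, which recruits the p97 ATPase to the ER membrane; log2 2.38 in wild type and 2.56 in Nrf2 -/-), Rhbdd1 (an ER rhomboid protease; 2.10 and 2.19), Dnajc10 (the reductase ERdj5; 1.46 and 1.45) and Ube2g2 (a ubiquitin-conjugating enzyme; 1.23 and 1.40). Among the 11, those that fell most included Trim13 (an ER-anchored ubiquitin ligase; -1.98 and -1.94), Svip (an inhibitor of the pathway that binds p97; -1.10 and -0.98) and Tmub1 (-0.42 and -0.37). Svip went from 82.3 ± 1.9 to 38.4 ± 1.8 CPM in wild type (mean ± SD, n = 2). At 1 h 2 genes were higher and 2 lower in wild type (3.39% each, against 6.68% and 2.35% of all genes), and 5 higher and 1 lower in Nrf2 -/- (8.47% and 1.69%, against 7.58% and 1.71%).

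Under IFN-γ the wider list was lower more often than higher at 24 h, with 26 lower and 2 higher in wild type (44.1% and 3.39%, against 21.5% and 21.7% of all genes). In Nrf2 -/- 30 were lower and 1 higher (50.8% and 1.69%, against 24.7% and 22.6%). At 8 h 10 were lower and 4 higher in wild type (16.9% and 6.78%, against 12.7% and 13.7%), and 13 lower and 5 higher in Nrf2 -/- (22% and 8.47%, against 14.6% and 16.1%). At 48 h 22 were lower and 11 higher in wild type (37.3% and 18.6%, against 22% and 21.1%), and 21 lower and 7 higher in Nrf2 -/- (35.6% and 11.9%, against 22.6% and 22.8%). Of these, 17 were lower and 6 higher in both genotypes. Among the 17, the 4 lowest at 48 h were Dnajb2 (a co-chaperone of HSP70 that binds ubiquitinated clients; log2 -1.52 and -1.49), Dnajb12 (an ER membrane co-chaperone; -1.02 and -0.58), Ube4a (a ubiquitin chain elongation factor; -0.98 and -0.61) and Herpud2 (the relative of Herpud1; -0.80 and -0.55). Among the 6, the 4 highest were Rnf139 (an ER ubiquitin ligase; 0.70 and 0.42), Erlin1 (0.49 and 0.43), Usp25 (a deubiquitinase; 0.45 and 0.33) and Rnf145 (an ER ubiquitin ligase; 0.39 and 0.19). Between 1 and 48 h untreated, 30 of the 59 rose and 10 fell in wild type (50.8% and 16.9%, against 29% and 25.7% of all genes), and 35 rose and 8 fell in Nrf2 -/- (59.3% and 13.6%, against 30.8% each).

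Across the 20 group means, the non-members whose profile was most like the average of the 10 members were Slc39a7 (a zinc transporter of the ER; Pearson r = 0.9931), Osbp (a sterol-binding transfer protein; 0.993), Dnajb11 (the BiP co-chaperone ERdj3; 0.9923), Atf6 (a sensor of the unfolded protein response; 0.992) and Uggt1 (the folding sensor of glycoproteins; 0.9904). The groups share libraries and treatments, so these values describe likeness only. All of these genes rose at 8 h of thapsigargin, where Atf6 went from 68.6 to 395 CPM in wild type and Dnajb11 from 168 to 853 CPM. Their likeness without those groups was not computed. Each member's own correlation with the average profile was 0.872 (Edem1) to 0.989 (Dnajb9). A member is itself part of that average, so its correlation is partly fixed in advance and cannot be set beside those of non-members. Over the 18 groups without thapsigargin at 8 h, and without Derl3, the members' own correlations ran from 0.16 (Herpud1) to 0.87 (Dnajb9). Syvn1 was at 0.46 and Derl2 at 0.59, and Edem1, Edem2, Sel1l, Derl1 and Os9 were at 0.70 to 0.85. Here too each member is part of the average.

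The transcripts behind each member were read from the kallisto estimates as shares of the gene's estimated counts. A single transcript held most of the estimate for Sel1l, Herpud1, Edem1, Edem2 and Dnajb9 (81.4% to 98.4% on average for the leading one). For Derl3 the protein-coding transcript Derl3-201 held 75.7% ± 3.0 (SD, n = 2) in wild type and 75.3% ± 0.33 (n = 3) in Nrf2 -/- at 8 h of thapsigargin. Its share in untreated libraries at 8 h was 51.0% to 65.9% in wild type and 0.235% to 53.9% in Nrf2 -/-, on totals of 44 to 76 estimated counts. For Syvn1 the retained-intron transcript Syvn1-205 held 32.2% ± 4.3 in wild type and 30.4% ± 4.8 in Nrf2 -/- untreated at 8 h, and 20% ± 1.4 and 20.7% ± 3.3 under thapsigargin. Its 5 thapsigargin libraries (16.9% to 22.6%) lay below the 5 untreated ones (25.7% to 35.3%). For Derl2 the retained-intron transcript Derl2-205 held 23.2% ± 0.60 and 24.9% ± 2.4 at 1 h of thapsigargin against 17.4% ± 0.082 and 20.1% ± 0.61 untreated, and 13.2% ± 2.5 and 11.8% ± 2.0 at 8 h. Os9 was split between Os9-201 and Os9-202, both protein-coding, with Os9-201 at 55.4% ± 0.033 and 57.9% ± 1.7 untreated at 8 h and at 52.6% ± 1.7 and 52.7% ± 0.86 under thapsigargin. These shares were not tested.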

How the data were processed

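RNA-seq libraries of the 50 samples were analysed from a table of gene counts and from transcript tables. Per the submitters' processing notes the tools were STAR, featureCounts, kallisto and edgeR. Their versions, the genome build and the strand setting of the counting are not given there. The authors deposited whole-number counts per gene and, per transcript, kallisto estimated counts, which were summed per gene and rounded as an alternative. Gene names came from GENCODE M21 (GRCm38), which matched 38872 of 39056 entries. Samples were grouped by title. The 10 members, the wider lists and the tests were chosen with earlier results of these data known.

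From the counts, edgeR 4.0.16 (R 4.3.3, limma 3.58.1) filtered genes with filterByExpr (minimum count 10, minimum total 15), scaled by TMM and fitted a robust quasi-likelihood model with 20 group means to 16460 genes, with Benjamini-Hochberg adjustment over all of them and a threshold of 0.05. CPM uses the TMM-scaled library size. Each of 28 contrasts was also fitted with RLE size factors, DESeq2 1.42.0, no filter, kallisto sums, the libraries of conflicting labels left out or counted as wild type, the compared groups only, and each library left out. Scripts were tested on simulated data. Intervals on Derl3 count ratios are exact and cover counting error only, since reads carry no molecular identifiers. Named genes were all 10 members, the 4 genes of the wider list furthest up and down in both genotypes at 8 h of thapsigargin and 48 h of IFN-γ, and the 5 most alike in profile. 1 gene that this rule names is not reported here. No replicate pair agreed within sampling noise (lowest chi-square per degree of freedom 5.17). The design text of the series speaks of 4 mutant replicates, and 3 were analysed here.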

Additional observations from a re-analysis of the deposited data

How the results depend on the processing

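No paired analysis was possible because the labels carry no replicate numbers, so a number here only names a library. The counts of members called under thapsigargin were 5 at 1 h and 10 at 8 h in both genotypes under every other setting, except 4 at 1 h in wild type with kallisto estimates and 5 to 6 at 1 h in Nrf2 -/- when 1 library was left out. The comparisons between genotypes gave 0 under every setting. Counts under IFN-γ moved, and the cause was not tested. An unchanged count can also hide a swap. With RLE size factors or DESeq2, Herpud1 lost its call and Edem1 gained one at 8 h in wild type. At 8 h in wild type the 2 calls became 0 with kallisto estimates and 0 to 1 with 1 library left out. At 8 h in Nrf2 -/- the 3 calls became 1 with kallisto estimates, 1 with the libraries of conflicting labels left out, 1 with them counted as wild type, 1 with only the compared groups in the fit, and 1 to 3 with 1 library left out. At 24 h the 6 calls in wild type became 3 to 5 with 1 library left out, and the 8 in Nrf2 -/- became 5 with only the compared groups and 5 to 8 with 1 library left out. At 48 h the 3 calls in wild type became 1 with only the compared groups and 1 to 4 with 1 library left out, and the 3 in Nrf2 -/- became 1 without the filter and 1 to 3 with 1 library left out. Between 1 and 48 h untreated, the 9 calls became 6 to 7 in wild type and 7 to 9 in Nrf2 -/- with 1 library left out. Other settings cost calls there too. In wild type Sel1l (adjusted p = 0.0899), Derl2 (0.291) and Os9 (0.0626) lost theirs with only the compared groups. Syvn1 (0.108), Derl2 (0.154) and Os9 (0.0786) lost theirs with kallisto estimates, and Syvn1 (0.147) and Derl2 (0.352) without the filter. In Nrf2 -/- Derl2 lost its call without the filter (0.155), and Herpud1 with DESeq2 (0.0707). Derl3 under IFN-γ at 24 h reversed with kallisto estimates, to -0.10 in wild type and -0.22 in Nrf2 -/-. Of 4151 alternative values of 280 single results, 4038 stayed on their side of the threshold, of which 215 changed sign while not called in either fit; 99 lost a call, 12 gained one and 2 called values reversed. Depth limits Derl3 most, with fewer than 10 counts in 25 of 50 libraries.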
